A study of Mus musculus with 15 samples.

Results

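The visceral endoderm (VE) cells of 15 whole mouse embryos are described here, from the onset of gastrulation to the cardiac crescent stage and with and without *Mesp1*. A cell was taken as a member when it held at least 2 unique molecular identifiers (UMIs, counted RNA molecules) of at least 5 of *Apoc2*, *Ttr*, *Apoa1*, *Apom*, *Rbp4*, *Afp* and *Amn* and 0 UMIs of *Cer1*, a gene of the anterior VE. Of 93701 retained cells, 9804 met this rule (10.5%), 8538 in control embryos and 1266 in KO embryos. Another 728 cells passed on the 7 genes but held a *Cer1* UMI, and they were set aside from both the members and the other cells.

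Each embryo was a single library of 10x 5′ single-cell RNA-seq. The 12 control embryos carried at least 1 wild-type *Mesp1* allele (*Mesp1* Cre/+ or *Mesp1* +/+) and the 3 KO embryos were *Mesp1* Cre/Cre, in which Cre replaces *Mesp1*, a transcription factor gene of nascent mesoderm. All carried the Smarcd3-F6::eGFP enhancer reporter at Hipp11, and all but the early E7.5 control and late E7.5 control replicate 1 carried the Cre-dependent Rosa26R-Ai14 reporter, which the *Mesp1* Cre allele switches on in the mesoderm lineage. Embryos were grouped as early (E6.0, late E6.0 and E6.5, 5 controls), middle (1 control each at late E6.5, at E7.0 and at early E7.5) and late (late E7.5 and E7.75, 4 controls), with 1 KO embryo in each group, at E6.5, E7.0 and late E7.5. The strain is C57/BL6 in the labels and C57BL/6J in the study's methods, ages were set by morphology, and part of the extra-embryonic tissue, where VE lies, was removed at dissection, some of it for genotyping, so a share of VE cells also depends on the cut.

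VE is the epithelium that wraps the epiblast and the extra-embryonic ectoderm before a placenta works. It takes up maternal nutrients through the cubilin, amnionless and megalin receptors, secretes lipoproteins and plasma proteins much as liver does later, and gives signals that pattern the epiblast. From the late streak stages, part of the embryonic VE is dispersed by definitive endoderm, while the extra-embryonic VE goes on to form the outer layer of the yolk sac.

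The label was checked with genes that the rule did not use. *Apob*, the carrier of lipoprotein particles, was at 830 to 1723 CPM (counts scaled to 1e+06 UMIs) in the summed members of an embryo and at 0.373 to 13.3 CPM in its other cells. *Cubn*, the cubilin receptor, was at 679 to 1344 CPM in members against 0.934 to 5.97 CPM, and *Hnf4a*, a hepatocyte and VE transcription factor, at 62.0 to 126 CPM against 0.167 to 2.71 CPM. All 3 were higher in members in 15 of 15 embryos. *Alb*, the main plasma protein of liver, reached at most 0.111 CPM, and *Pou5f1*, an epiblast gene, was lower in members than in other cells in all 15 embryos. These are descriptions, since members and other cells were separated by their own counts.

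Cells near the limit of the rule were shallow. The 1685 cells with exactly 5 of the 7 genes had a median of 2637 UMIs and the 1407 cells with 4, just outside, had 2616 UMIs, whereas the 6050 cells with all 7 had 22934 UMIs. *Afp* and *Amn* were the rule genes reached least often, in 15.8% and 24.3% of cells with 5 genes and in 8.17% and 14.4% of cells with 4. A further 526 barcodes passed on the 7 genes and *Cer1* but fell outside the limits on UMIs, genes and mitochondrial reads, 236 of them for their UMIs. Of 9748 distinct member barcodes, 56 occurred in more than 1 library.

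Libraries differed in ways that touch the members. They held 255 to 22277 retained cells, and the median member held 5285 UMIs in the late KO embryo and 6717 UMIs in E7.75 control replicate 1, both of experiment 5 (the number in the library name), against 10914 to 30669 UMIs in the other 13. In 2074 members (21.2%) less than 0.5% of UMIs were mitochondrial. Their median was 5941 UMIs against 18720 UMIs in the rest, and *Malat1*, a nuclear RNA, was at 297 CPM against 1112 CPM and *Apob* at 157 CPM against 1250 CPM, while *Fth1*, ferritin, was alike at 10599 CPM and 10535 CPM. The share of members scored as likely doublets was 1.53% ± 1.87 (SD, n = 5) in early and 22.2% ± 10.8 (SD, n = 4) in late controls. The number scored was set at 0.8% per 1000 barcodes of a library, and libraries held 432 to 4715 barcodes early and 7099 to 23141 late, so part of this contrast follows from library size. The share of VE cells and the counts of genes called with age, in KO over all stages and against other cells are given with and without low-mitochondrial barcodes and mixed clusters. The age calls are also given without likely doublets. Other values are for all members unless stated. E6.0 control replicate 3 also stood apart, with 530.0 CPM of *Xist*, the RNA of the inactive X chromosome, against at most 2.01 CPM in the other 14 embryos. *Xist* and the Y-chromosome genes *Ddx3y*, *Eif2s3y*, *Kdm5d* and *Uty* together summed to 530 CPM in it and to 53.5 to 96.0 CPM in the others. By these genes it was the only female embryo, and sex was not entered in any test. *Mesp1* had 0, 1 and 5 UMIs in the KO libraries and 282 to 16093 in the controls.

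The share of VE cells was 12.16% to 21.9% in early and 2.05% to 14.4% in late controls. By embryo, the early controls had 12.16%, 21.9% and 20.8% in the 3 E6.0 embryos, 19.4% at late E6.0 and 13.5% at E6.5. The middle controls had 10.0%, 12.4% and 15.97%, in order of age. In the late controls it was 12.6% and 14.4% at late E7.5 but 2.05% and 10.4% in the 2 E7.75 embryos. The early and late ranges thus overlapped, and E7.75 control replicate 1 lay far below the rest.

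The mean share was 17.5% ± 4.42 (SD, n = 5) early and 9.86% ± 5.45 (SD, n = 4) late, a difference of -7.68 percentage points that did not pass the threshold (two-sided exact permutation test, p = 0.0794). Without E7.75 control replicate 1 it was -5.07 points (exact permutation p = 0.179). With cells thinned to 2000 UMIs it was -7.27 points (exact permutation p = 0.0159). Cells below 2000 UMIs were left out there, 2.94% to 8.09% of those of an early control and 4.33% to 17.2% of a late one. Without low-mitochondrial barcodes and the cells of 2 mixed clusters (below) the difference was -9.05 points (exact permutation p = 0.0159). It was -12.18 points with *Cer1* not considered (exact permutation p = 0.0159) and -8.68 points without likely doublets (exact permutation p = 0.0317). Taken over all barcodes of the libraries, where cells above 50000 UMIs and 7000 genes are kept, it was -2.92 points (exact permutation p = 0.397), with means of 12.7% early and 9.82% late. The limits retained 288 of 432, 255 of 623 and 531 of 901 barcodes in E6.0 control replicates 2 and 3 and the late E6.0 control. They retained 1497 of 1603 and 3994 of 4715 in the other early controls. In the late controls they retained 13414 of 14219 in E7.75 control replicate 2 and a larger part in the others. The settings that passed all keep these limits. Within experiment 7, the only one with both stages, the E6.5 control had 13.5% and the late controls 12.6% and 10.4%. Each share carries an exact 95% Clopper-Pearson interval of counting error, from 1.83% to 2.29% for the lowest and from 17.2% to 27.1% for the highest.

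KO embryos did not differ in one direction. The early KO embryo had 8.86% VE cells, below all 5 early controls, the middle one 16.1%, just above its 3 controls, and the late one 6.59%, inside the range of its 4 controls. The mean difference over stages was -2.89 percentage points (two-sided exact permutation within stages, p = 0.367), and under the other choices of cells, barcodes and controls tried it was -1.11 to -3.17 points. Without the early KO embryo it was -0.0023 points and without the middle one -5.97 points. Within experiments the directions were opposite, since in experiment 8 the early KO embryo had 8.86% against 20.8% and 19.4% in 2 younger controls and in experiment 5 the late KO embryo had 6.59% against 2.05% in an older control. In experiment 8 the limits retained 1693 of 1881 barcodes of the early KO embryo but 255 of 623 and 531 of 901 of these 2 controls. Over all barcodes the shares there were 8.93% in the KO embryo and 10.3% and 13.4% in the controls.

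**Figure D1:**
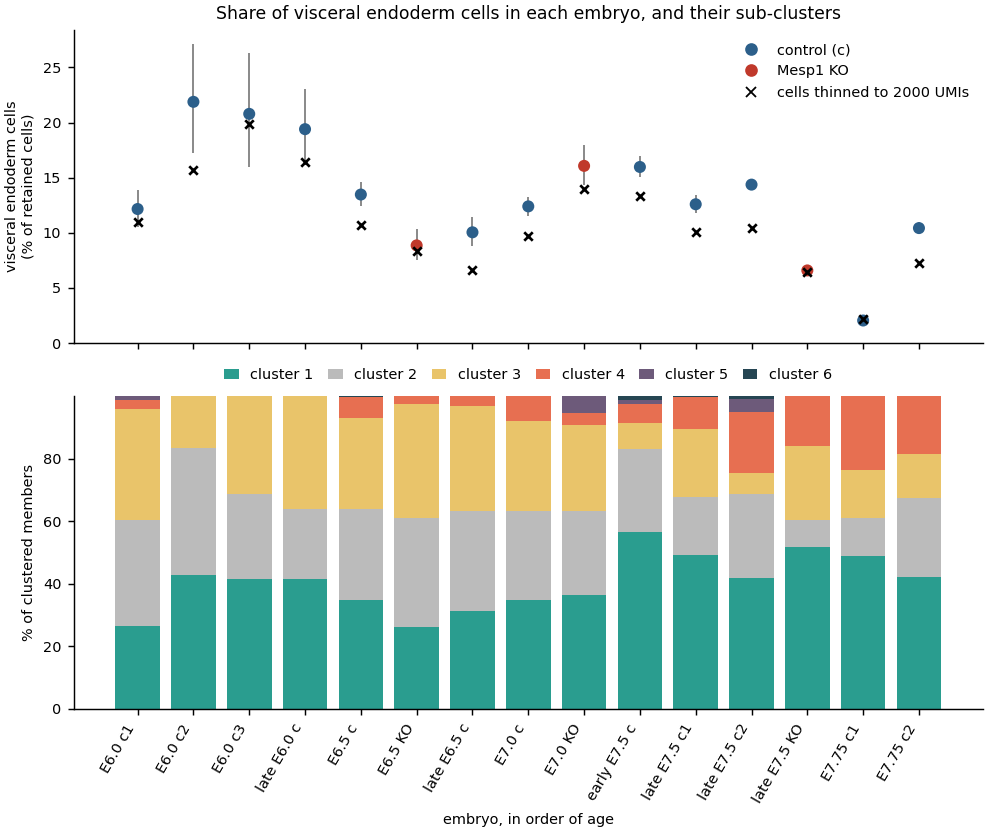
Upper plot, the share of VE cells in percent of the retained cells of each embryo, in order of age, with 95% Clopper-Pearson intervals and, as crosses, the share after thinning cells to 2000 UMIs. Lower plot, the share of each of 6 sub-clusters among the clustered members. The E6.0 embryos reach 21.9% while E7.75 control replicate 1 has 2.05%, and cluster 4 takes a larger part of the late embryos.

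The members were not of a single kind. Clustering the 7730 members with at least 0.5% mitochondrial UMIs gave 6 clusters, and since the cells were clustered on these genes their levels are descriptions. Cluster 1, with 3362 cells, was extra-embryonic VE-like, with 5 of the 25 genes of the extra-embryonic VE list at least 2-fold above the other clustered members, namely *Lrp2* (megalin), *Fga* and *Fgg* (fibrinogen chains), *Slc2a2* (a glucose transporter) and *Nostrin*. Its leading genes were *Apoa2*, an apolipoprotein of high-density lipoprotein, at 410.0 CPM against 137 CPM, *S100g*, a calcium-binding protein, at 989.6 CPM against 345 CPM, and *Aqp3*, a water channel. It also led in *Fcgrt*, the neonatal Fc receptor that carries maternal antibody.

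Cluster 3, with 1212 cells, was embryonic VE-like, with *Fgf5*, *Fgf8*, *Cyp26a1*, *Eomes*, *Lhx1*, *Trh*, *Sox17* and *Bmp2*, 8 of the 14 genes of the embryonic VE list, at least 2-fold above. So were 4 of 15 anterior VE genes (*Dkk1*, *Lhx1*, *Sfrp1* and *Sfrp5*) and 5 of 14 definitive endoderm and gut genes (*Sox17*, *Trh*, *Foxa1*, *Cpm* and *Krt19*). *Trh*, a hormone precursor, was at 230.1 CPM against 8.05 CPM, *Krt19*, a keratin, at 88.2 CPM against 6.61 CPM, and *Sp5*, a Wnt target, at 122 CPM against 11 CPM. Over the 14 embryos in which both clusters were summed, *Bmp2*, a signal, averaged 73.7 ± 19.3 CPM (SD) in cluster 3 and 22.3 ± 13.6 CPM in cluster 1, and *Slc2a2* the reverse, 82.9 ± 27.2 CPM and 221 ± 35.7 CPM, each in the same order in 14 of 14 embryos. Not all of the extra-embryonic VE list followed this order, since *Spink3*, a protease inhibitor, averaged 9341 CPM in cluster 3 and 4751 CPM in cluster 1 and *Dpp4*, a peptidase, 250.4 and 179 CPM, both higher in cluster 3 in 14 of 14 embryos, and *Cpn1*, a carboxypeptidase, 93.5 and 63.6 CPM, higher in 13 of 14. Among genes of the rule, *Apoc2* was at 2669 ± 1148 CPM in cluster 3 and 8034 ± 2628 CPM in cluster 1. *Cdkn1c*, a cell-cycle inhibitor, was at 454 ± 364 CPM in cluster 3 and 86.6 ± 35.4 CPM in cluster 1.

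The other clusters were unnamed or mixed. Cluster 2 held 1862 shallow cells, with a median of 2425 UMIs, and no gene list had 3 or more genes at least 2-fold up in it. Cluster 4 held 1112 cells, of which 90.7% were likely doublets, with *Pou5f1*, *Acta2* (smooth muscle actin), *Crabp1* and the embryonic globins *Hbb-bh1* and *Hba-x* beside the rule genes. Cluster 6 held 38 cells, 81.6% likely doublets, with 11 of 12 extra-embryonic ectoderm markers at least 2-fold up. Cluster 5 held 144 cells, 85.4% of them from late E7.5 control replicate 2, with *Igfbp1* at 554 CPM against 5.72 CPM and 9 of 15 parietal endoderm markers, the laminins *Lama1*, *Lamb1* and *Lamc1* and collagen genes *Col4a1* and *Col4a2* among them, at least 2-fold up. Cluster 3 made up 29.7% ± 7.85 (SD, n = 5) of the clustered members in early and 14.6% ± 6.28 (SD, n = 4) in late controls. Cluster 4 made up 1.92% ± 2.997 early and 17.9% ± 5.58 late. Members with at least 0.5% mitochondrial UMIs and outside clusters 4 and 6 (6580 cells) are called clean members below. They still include the likely doublets of clusters 1, 2, 3 and 5.

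The genes of the rule were high at every age, and over all members 1 of them stood higher in late embryos. *Rbp4*, the plasma carrier of retinol, was at 2840, 1895, 1962, 2942 and 3787 CPM in the early controls (E6.0 replicates 1 to 3, late E6.0 and E6.5) and at 6496, 5735, 5991 and 5826 CPM in the late ones (late E7.5 replicates 1 and 2, E7.75 replicates 1 and 2). Every late embryo lay above every early one. *Ttr*, the thyroid hormone carrier transthyretin, was at 4263 to 6301 CPM in early controls and at 7733, 6022, 13640 and 7564 CPM in late ones, and at 15125 CPM in the late KO embryo. Its 2 highest embryos were both of experiment 5, as were those of *Apoc2*, with 10045 CPM in E7.75 control replicate 1 and 10246 CPM in the late KO embryo, and of *Apom*, with 3442 and 3372 CPM.

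*Afp*, alpha-fetoprotein, showed no such order, with 685 to 1126 CPM in early and 796 to 1071 CPM in late controls. *Amn*, amnionless, the partner of cubilin, was at 859 to 1221 CPM early and 651 to 961 CPM late. *Apoa1*, the main protein of high-density lipoprotein, was at 5199 to 5678 CPM early and 5215 to 7530 CPM late. In clean members *Apoa1* was at 5282 to 5963 CPM early and 6448 to 8426 CPM late, every late control above every early one. There the same held for *Rbp4*, for *Ttr* (4625 to 6804 and 7431 to 15228.5 CPM) and for *Apom* (1599 to 2006 and 2267 to 3860 CPM). It did not hold for *Apoc2*, *Afp* or *Amn*. The KO embryos, in order of age, had 6635, 6942 and 15125 CPM of *Ttr*, 890, 891 and 905 CPM of *Afp* and 983, 875 and 754 CPM of *Amn*. Since these genes chose the cells, no test was made on them.

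**Figure D2:**
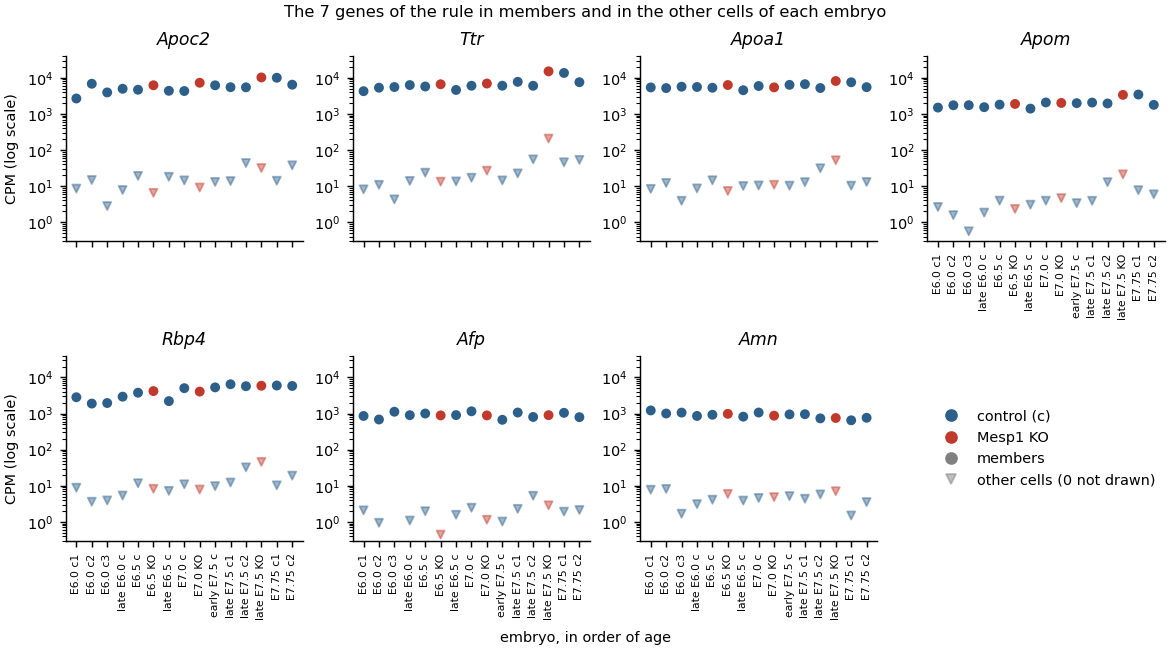
Level of each of the 7 rule genes in CPM, on a log axis, in the summed members (circles) and the summed other cells (triangles) of each embryo in order of age, controls in blue and KO embryos in red. Members lie far above other cells in every embryo, *Rbp4* is at 5735 CPM or more in the late controls, and *Ttr*, *Apoc2* and *Apom* peak in the 2 embryos of experiment 5.

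To ask how VE changed with age, UMI counts were summed over the members of each control embryo and late embryos were compared with early ones. Of 11628 genes tested, 259 passed (2.23%), 172 higher late (1.48%) and 87 lower late (0.748%; edgeR's quasi-likelihood test, Benjamini-Hochberg adjusted p under 0.05). At an unadjusted p under 0.05 the count was 2446 (21%). In such sums a change in the share of a kind of VE cell and a change of RNA per cell cannot be told apart. The p-values measure the spread between embryos, whose library names also carry different experiment numbers: with that number as a covariate 1 gene passed. Of the 259, 258 kept their direction, but they were called on these same embryos, so this gives no separate check. In clean members 270 of 10844 genes passed (2.49%), 173 higher (1.60%) and 97 lower (0.895%), of which 148 were also called among all members. Without likely doublets 175 of 11373 genes passed, 117 of them among the 259, and of the 20 genes named below *Acta2*, *Nnat*, *Ifitm1* and *Nodal* did not pass (adjusted p from 0.0538 to 0.079). Without E6.0 control replicate 3, the embryo with high *Xist*, 4 genes passed, and without the E6.5 control 575.

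The genes that fell the most included signals and transcription factors of the embryonic VE and epiblast. *Fgf5*, a growth factor of the epiblast and of VE next to it, was at 64.6, 18.1, 33.9, 30.7 and 12.8 CPM in the early controls and at 0.505, 0.322, 0 and 0.652 CPM in the late ones (log2 change -6.02 ± 1.26 (SE), adjusted p = 0.0319). *Nodal*, the signal that patterns epiblast and VE, was at 6.91 to 34.9 CPM early and 0 to 2.71 CPM late (log2 change -4.01 ± 0.96, adjusted p = 0.0482). *Wnt3*, which the posterior VE and epiblast express before the streak forms, was at 14.6 to 50.4 CPM early and 0.780 to 6.81 CPM late (log2 change -2.91 ± 0.63, adjusted p = 0.0354). The genes named here were chosen for early and late embryos that do not overlap, which held for 8.71% of all genes tested in this direction.

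*Eomes*, a T-box transcription factor of VE and streak, was at 80.1, 31.9, 42.8, 33.2 and 32.9 CPM early and at 9.46, 4.31, 4.02 and 9.01 CPM late, a log2 change of -2.51 ± 0.46 (adjusted p = 0.0233). In the middle controls it was at 58.9, 18.9 and 11.5 CPM, in order of age, so that the oldest of them was close to the late embryos. The pluripotency-associated genes *Utf1* and *Dppa5a* fell by 2.17 ± 0.31 and 2.09 ± 0.34 on the log2 scale (adjusted p = 0.0129 and 0.0166). *Srgn*, a proteoglycan gene that is also on the parietal endoderm list, *Dgkk*, a diacylglycerol kinase, *Vrtn* and *Spry1*, an inhibitor of FGF signalling, fell by 2.22, 1.70, 1.58 and 1.27 (adjusted p from 0.0208 to 0.0351).

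Part of this group was also higher in the embryonic VE-like cluster, whose share was 16.7% to 36.1% in early and 6.70% to 22.01% in late controls, ranges that overlap, and was not tested. Over all cells of a cluster, *Fgf5* was at 24.6 CPM in cluster 3 and 0.277 CPM in cluster 1, *Nodal* at 23.0 and 0.566 CPM, and *Eomes* at 29.0 and 8.49 CPM. In clean members all 10 genes were called again. Within cluster 1 alone 8 of the 10 could be tested and 2 passed, *Utf1* (log2 change -2.13, adjusted p = 0.0441) and *Dppa5a* (-1.55, adjusted p = 0.0234), while *Eomes* was at -1.03 (adjusted p = 0.111). The summed level of the 10 epiblast markers was 462 to 758 CPM in early and 191 to 420 CPM in late members, beside 2871 to 4799 CPM in the other cells of early embryos. The part of the cluster shares and of epiblast RNA in these changes was not tested further.

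The genes that rose included a hormone, cytoskeletal genes and mesoderm genes. *Sct*, the gut hormone secretin, was at 0, 0, 0, 0.715 and 3.67 CPM in the early controls and at 16.02, 21.4, 102 and 28.8 CPM in the late ones (log2 change 4.82 ± 0.92, adjusted p = 0.0267), and it passed in cluster 1 alone (adjusted p = 0.0271). Its log2 change was 7.55 without the E6.5 control and 3.75 without E7.75 control replicate 1. *Pdlim4*, an actin-associated protein gene, was at 0.679 to 5.90 CPM early and 21.3 to 38.03 CPM late (log2 change 3.29 ± 0.50, adjusted p = 0.0149) and also passed within cluster 1 (adjusted p = 0.0234). Both were chosen for embryos that do not overlap, which held for 2.99% of all genes tested in this direction. In the middle controls *Sct* was at 2.57, 4.26 and 13.3 CPM and *Pdlim4* at 4.004, 9.56 and 19.4 CPM, so the youngest of them lay within the early range and the other two between the early and late ranges.

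*Acta2* and *Crabp1*, which led cluster 4, and the mesoderm regulator *Cdx1* rose in the sum of all members. *Acta2* was at 0 UMIs in all 5 early controls and at 1.01, 39.2, 11.5 and 31.9 CPM late, at least 117-fold higher than the floor of 3 counts over the early group. Too few *Acta2* counts were left in clean members for a test. *Cdx1* had 3 UMIs in the early group and was at 9.59 to 47.9 CPM late, a ratio of the summed counts of 146 with a 95% counting interval of 50.1 to 710, and it no longer passed in clean members (adjusted p = 0.0717). *Crabp1*, a retinoic acid-binding protein gene, rose by 4.55 ± 0.66 on the log2 scale (adjusted p = 0.0129), and by 2.79 in clean members (adjusted p = 0.0207). *Nnat* and *Ifitm1* rose by 3.36 ± 0.67 and 3.33 ± 0.61 (adjusted p = 0.0288 and 0.0233) and passed again in clean members. Without the E6.5 control the log2 change was 11.4 for *Cdx1*, 5.56 for *Nnat* and 4.85 for *Ifitm1*.

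*Sec61g*, *Atp5l* and *Hist1h2ap* rose in VE and in the rest of the embryo. *Sec61g*, a subunit of the translocon, went from 1.72 to 14.7 CPM early to 87.3 to 475 CPM late (log2 change 5.46 ± 0.76, adjusted p = 0.0129), and its mean in the other cells went from 6.13 to 219 CPM. The tested difference between VE and other cells was 0.05 on the log2 scale for *Sec61g*, 0.31 for *Atp5l*, an ATP synthase subunit gene, and -0.04 for the histone gene *Hist1h2ap* (adjusted p = 0.915, 0.406 and 0.904). The highest embryo for *Atp5l* and *Hist1h2ap* was E7.75 control replicate 1, with 131 and 829 CPM, and without it their log2 changes were 2.59 and 2.27 and did not pass. The 1 early and 2 late controls whose library names carry the number 7 give no separate check of direction for the 20 named genes, which were chosen for early and late embryos that do not overlap.

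**Figure D3:**
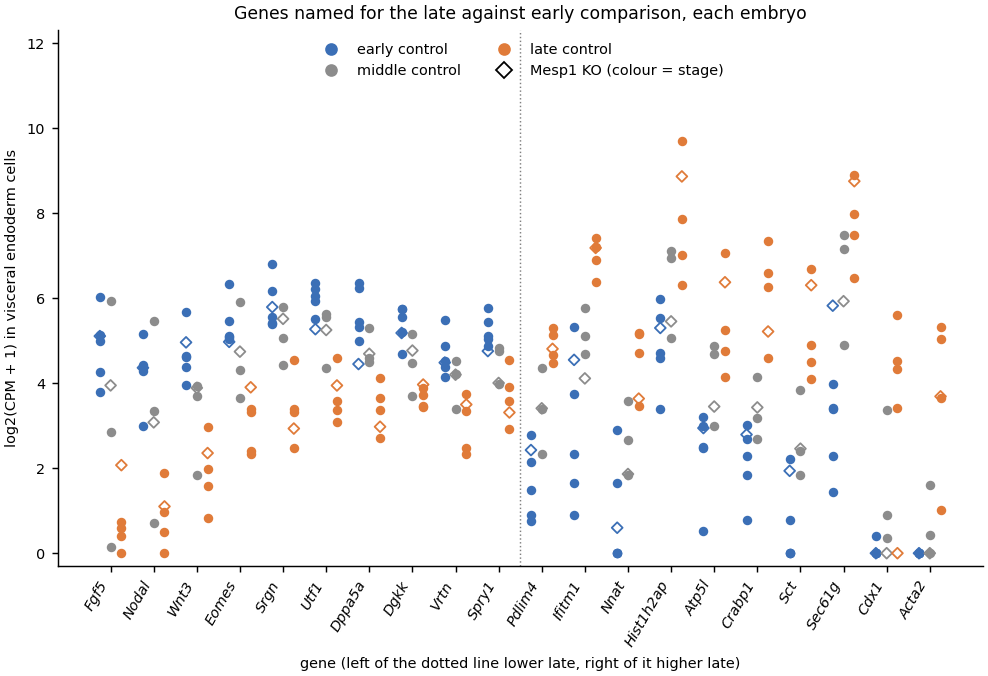
Levels, as log2(CPM + 1), of the 20 named genes in the members of each embryo, early (blue), middle (grey) and late (orange), filled for controls and open diamonds for the KO embryo of each stage. By the rule that chose the genes, early and late controls do not overlap for any of them, *Acta2* is at 0 in all early controls, and *Cdx1* is at 0 in all 3 KO embryos.

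Several plasma protein genes rose. Of 21 listed genes 15 could be tested, 4 rose, *Fga*, *Fgg*, *Ambp* and *Rbp2*, and none fell, with a median log2 change of 0.82 beside -0.0015 over all genes. Over all genes tested 1.48% rose and 0.748% fell, and these shares also stand beside the list counts that follow. *Fga* was at 22.4, 25.9, 15.6, 27.9 and 29.1 CPM in the early and 54.8, 65.3, 63.2 and 54.0 CPM in the late controls (log2 change 1.44 ± 0.24, adjusted p = 0.0166). *Fgg* rose by 1.22 ± 0.22 (adjusted p = 0.0221). *Ambp*, the precursor of alpha-1-microglobulin and bikunin, rose by 1.33 ± 0.22 (adjusted p = 0.0166) from 4.32 to 6.89 CPM early to 11.3 to 15.6 CPM late, and *Rbp2*, which codes for a retinol-binding protein inside cells and not in plasma, by 3.52 ± 0.64 (adjusted p = 0.0233) to at most 5.02 CPM. In clean members *Fgb*, the third fibrinogen chain (log2 change 0.96, adjusted p = 0.0258), and *Serpinf2*, an inhibitor of plasmin (1.03, adjusted p = 0.0331), passed as well, and *Fga*, *Fgg* and *Ambp* passed within cluster 1 alone. In the other cells 9 of 13 plasma protein genes tested rose, beside 11.6% of all genes tested there, and *Gc* fell. *Fga*, *Fgg* and *Ambp* rose there by 2.38, 2.67 and 2.57 (adjusted p = 0.0256, 0.0135 and 0.00722), and their change was not called to differ between VE and the other cells (adjusted p = 0.321, 0.132 and 0.15).

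Of the lipoprotein genes few changed. Of 11 tested besides the rule genes, 1 rose, *Pdzk1*, a scaffold of the HDL receptor (log2 change 0.75 ± 0.17, adjusted p = 0.0395), and none fell, with a median of 0.26. *Apoa2* was at 45.6, 32.8, 133, 137 and 163 CPM early and 254, 380, 446 and 210 CPM late, did not pass over all members (log2 change 1.85 ± 0.46, adjusted p = 0.0508) and passed in clean members (1.97, adjusted p = 0.0347). *Apob* had a log2 change of -0.27 ± 0.20 (adjusted p = 0.486) and *Apoe* one of 0.05 ± 0.16 (adjusted p = 0.902).

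No gene of the uptake machinery was called. None of the 17 endocytosis and lysosome genes tested passed, with a median of 0.01. *Cubn* was at 930 to 1344 CPM early and 792 to 924 CPM late (log2 change -0.25 ± 0.16, adjusted p = 0.412) and *Lrp2* at 160 to 239 and 146 to 179 CPM (-0.13 ± 0.17, adjusted p = 0.72). In clean members *Fcgrt* rose (log2 change 1.04, adjusted p = 0.0342), with 13.8 to 24.1 CPM early and 15.6 to 32.3 CPM late over all members. None of 11 iron and haem genes, 16 cholesterol synthesis genes or 14 metallothionein and stress genes passed.

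Few VE transcription factors were called. Of 20 tested, 19 had a negative log2 change, with a median of -0.42, but only 3 passed. These 3 fell and none rose, beside 0.748% lower and 1.48% higher over all genes tested. Among these, besides *Eomes*, was *Foxa2*, an endoderm factor, at 32.8 to 60.7 CPM early and 17.1 to 24.3 CPM late (log2 change -0.73 ± 0.17, adjusted p = 0.047). *Foxa2* did not pass in clean members (adjusted p = 0.0994), where *Eomes* alone passed and 16 of 20 changes were negative. *Hnf4a*, *Gata4*, *Gata6* and *Sox17* had log2 changes of -0.43, -0.41, -0.25 and -0.77 and did not pass (adjusted p = 0.0768, 0.115, 0.41 and 0.0729).

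Of the 13 embryonic VE genes tested, 2 fell, *Fgf5* and *Eomes*, beside 0.748% of all genes tested. In this list 12 had a negative change and the median was -1.18. Among 25 extra-embryonic VE genes 2 rose, *Fga* and *Fgg*, and 1 fell, *Wnt3*, with a median of -0.11. In clean members the median was 0.07, and *Slc2a2* and *Fgb* rose as well. *Trh*, the leading gene of cluster 3, was at 4.32 to 134 CPM early and 6.52 to 62.5 CPM late and did not pass (log2 change -0.03 ± 0.76, adjusted p = 0.99). Of 14 anterior VE genes tested, *Foxa2* alone passed. Cells with a *Cer1* UMI had been removed by the rule, so this list speaks only for cells without it.

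Among 30 signals and receptors, *Dlk1*, a Notch-like ligand from an imprinted locus, rose by 1.51 ± 0.32 (adjusted p = 0.0319), and *Bmp4*, *Pdgfa* and *Id2*, a target of BMP signalling, rose by 1.35, 1.03 and 0.87 (adjusted p = 0.0388, 0.0435 and 0.043), while *Nodal* and *Wnt3* fell. The shares over all genes tested were 1.48% higher and 0.748% lower. *Bmp4* and *Pdgfa* did not pass in clean members, where their log2 changes were -0.39 and 0.16 (adjusted p = 0.542 and 0.787), and *Dlk1* and *Id2* did. *Bmp2* was at 24.2 to 54.2 CPM early and 12.5 to 25.8 CPM late (log2 change -1.18 ± 0.40, adjusted p = 0.115). *Ihh*, a hedgehog ligand of VE, was at 12.1 to 33.8 and 17.6 to 49.6 CPM (0.77 ± 0.29, adjusted p = 0.153).

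Of 17 imprinted genes, 4 rose, namely *Dlk1*, *Ndn*, *Cdkn1c* and *Phlda2*, a growth inhibitor of placenta, and none fell, with a median of 0.03. Over all genes tested 1.48% rose and 0.748% fell. *Ndn* did not pass in clean members (adjusted p = 0.255). *Phlda2* was at 183 to 387 CPM early and 562 to 760 CPM late (log2 change 1.43 ± 0.31, adjusted p = 0.0354). *Cdkn1c* was at 31.9 to 130 CPM early and 175 to 273 CPM late (1.46 ± 0.30, adjusted p = 0.0301). *H19* and *Igf2*, neighbours at an imprinted locus, had changes of -0.13 and 0.56 (adjusted p = 0.733 and 0.16).

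Of 22 cell-cycle genes the inhibitors *Cdkn1c* and *Cdkn1a* and the cyclin gene *Ccnd2* rose, beside 1.48% of all genes tested. *Cdkn1a* was at 6.91 to 17.6 CPM early and 22.5 to 34.1 CPM late (1.45 ± 0.29, adjusted p = 0.0288) and passed in clean members, whereas *Ccnd2* did not (adjusted p = 0.0599). Of 21 glycolysis and hypoxia genes only *Slc2a1*, a glucose transporter, passed (log2 change 0.999 ± 0.196, adjusted p = 0.0288). Of 15 lipid and retinoid genes, *Aldh1a2*, *Rbp2* and *Fabp5* rose and *Rdh10*, a retinol dehydrogenase, fell by 0.70 ± 0.15 (adjusted p = 0.0354). *Aldh1a2*, the retinoic acid-producing enzyme, was at 0 in all early controls and could not be tested in clean members. Of 20 solute carrier genes 1, *Slc38a4*, and 1 of 15 epithelial genes, *Cdhr5*, rose. In clean members *Slc38a4* could not be tested, and *Car7* and *Slc2a2* among the solute carrier genes and *Cdhr5* and *S100g* among the epithelial genes rose (adjusted p from 0.0211 to 0.0391).

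**Figure D4:**
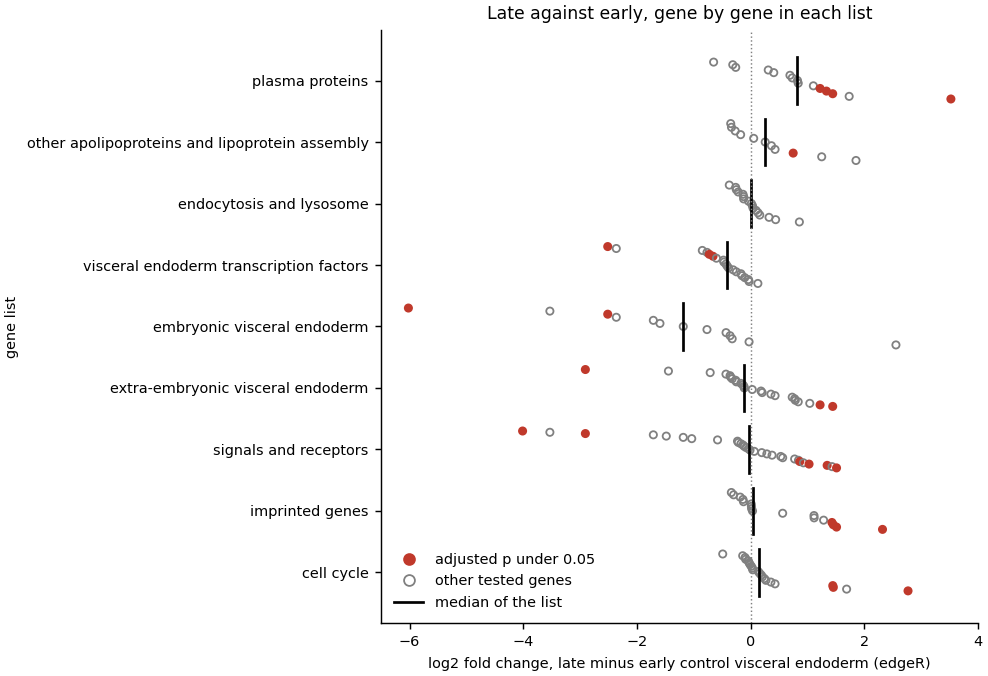
Log2 fold change, late minus early, of each tested gene in 9 gene lists in control VE, with red points past the adjusted p threshold of 0.05 and a black bar at the median of each list. The plasma proteins centre on 0.82, the VE transcription factors on -0.42 and the embryonic VE genes on -1.18, while endocytosis genes lie around 0.01.

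Markers of other cells moved with age as well. Blood markers summed to 3.01 to 10.7 CPM in the members of early controls and 8.03 to 1537 CPM in those of late ones, beside 179 to 7923 CPM in the other cells of late embryos. None of the 5 blood, 6 endothelial, 6 extra-embryonic ectoderm and 10 definitive endoderm and gut genes tested passed. In clean members *Hand1*, of the extra-embryonic ectoderm and the streak and mesoderm lists, and *Cpm*, of the definitive endoderm and gut list, rose (log2 change 3.56 and 0.86, adjusted p = 0.0329 and 0.036). Of 14 parietal endoderm genes tested, *Srgn* and *Nid1*, a basement membrane protein gene, fell (log2 change -2.22 and -0.94, adjusted p = 0.0227 and 0.0429), also in clean members, and these markers summed to 2012 to 3106 CPM in early and 2129 to 2504 CPM in late members. Of 13 streak and mesoderm genes, *Msgn1*, *Tbx6* and *Phlda2* rose and *Mixl1* fell, beside 1.48% higher and 0.748% lower over all genes tested. In clean members *Msgn1* did not pass (adjusted p = 0.203) and *Tbx6* could not be tested, and the streak and mesoderm markers summed to 255 to 420 CPM early and 558 to 849 CPM late. The single maternal or immune gene that could be tested did not pass, and those markers summed to at most 5.92 CPM.

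The age change in VE was tested against that in the other cells of the same control embryos. The change differed for 1451 of 14799 genes (9.80%), 937 with a more positive change in VE (6.33%) and 514 with a more negative one (3.47%), around a median shift of 0.11 on the log2 scale over all genes. At an unadjusted p under 0.05 the count was 4154 (28.1%). The other cells are a sum of many kinds, whose make-up also changed with age, and its part in these differences was not tested. In them epiblast markers summed to 2871 to 4799 CPM early and 178 to 1661 CPM late, and blood markers to 5.41 to 13.4 CPM and 179 to 7923 CPM. With clean members 1484 of 14308 genes passed (10.4%), 992 more positive (6.93%) and 492 more negative (3.44%). Leaving out 1 embryo gave 426 genes without E7.75 control replicate 2, 571 and 754 without E6.0 control replicates 1 and 3, 588 without late E7.5 control replicate 2, 697 without the late E6.0 control and 2312 without the E6.5 control. Of the 10 named genes that fell, 9 also had a negative change in the other cells, and 6 of them passed there, beside 7.13% of all genes tested there. *Eomes* fell less in VE than elsewhere (difference 3.47 ± 0.46 on the log2 scale, adjusted p = 0.00091), since its mean in other cells went from 168 to 3.15 CPM. *Dgkk* was the exception, with 5.86 CPM early and 6.08 CPM late in other cells (difference -1.69, adjusted p = 0.00998). All 10 genes that rose also rose in the other cells, where 11.6% of all genes tested rose. Of the 10, *Cdx1*, *Sct*, *Nnat* and *Pdlim4* rose more in VE (adjusted p from 0.00313 to 0.0291). For *Sct* and *Pdlim4* this also passed with clean members and without likely doublets. *Cdx1* and *Nnat* were among the 10 leading genes of cluster 4, and their difference did not pass without likely doublets (adjusted p = 0.36 and 0.227), nor for *Cdx1* with clean members (adjusted p = 0.34).

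Some genes had a more positive change in the other cells than in VE. *Dlk1* rose by 3.81 there (adjusted p = 0.00678) and *Igf2* by 2.73 (adjusted p = 0.00753), and their change in VE was lower by 2.37 and 2.24 (adjusted p = 0.00285 and 0.00382). Of 16 plasma proteins tested, the change differed for 4, with *Vtn*, *Spink3* and *Serpinf2* lower in VE and *Gc*, the vitamin D carrier, higher. Over all genes tested in this comparison 6.33% were more positive and 3.47% more negative in VE, shares that also stand beside the next list. Of 22 glycolysis and hypoxia genes tested, *Aldoa*, *Ldha* and *Pgk1* had a more positive change in VE (differences 0.93, 0.66 and 0.53, adjusted p = 0.0182, 0.0265 and 0.0376), and *Vegfa*, an angiogenic factor, and *Slc2a3*, a glucose transporter, a more negative one (-2.10 and -1.91, adjusted p = 0.004 and 0.000651). With clean members *Pgk1* did not pass (adjusted p = 0.0591) and the other 4 did. The other cells include cells with up to 4 rule genes, and 0.439% to 6.09% of those of a control embryo held 3 or 4.

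To ask what loss of *Mesp1* did to VE, the KO embryos were compared with controls, with stage as a covariate. None of 11117 genes passed (0%; edgeR's quasi-likelihood test), 1122 did at an unadjusted p under 0.05 (10.1%), and DESeq2 called 114, 18 higher and 96 lower in KO. In clean members edgeR called none of 10523 genes. By stage, with 1 KO embryo each that is assumed to vary like the controls, edgeR called 0 of 12032 genes at each of the 3 stages, 374 (3.11%), 635 (5.28%) and 702 (5.83%) passed at an unadjusted p under 0.05, and DESeq2 called 2, 5 and 5. At the late stage 201 genes passed without E7.75 control replicate 1, the only control of the KO embryo's own experiment. The late KO difference was not called to differ from the early one for any gene either (edgeR 0 of 12032, 344 or 2.86% at an unadjusted p under 0.05, and DESeq2 0).

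Of the listed genes, the following were chosen after their values were seen, and none passed in edgeR. *Bnip3*, a mitophagy gene induced by low oxygen, was at 189.9 CPM in the early, 249.5 CPM in the middle and 172 CPM in the late KO embryo. The early controls had 111 to 166 CPM, the middle ones 145 to 149 CPM and the late ones 75.3 to 150 CPM, so each KO embryo lay above the mean of its stage's controls (log2 difference 0.76 ± 0.13, edgeR adjusted p = 0.218, DESeq2 adjusted p = 8.64e-05). The same was so for 5.05% of all genes tested. *Cdkn1c* was at 164, 219 and 376 CPM in KO embryos against 31.9 to 130, 82.9 to 142 and 175 to 273 CPM (1.05 ± 0.25, edgeR adjusted p = 0.227, DESeq2 adjusted p = 0.026).

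*Plg*, plasminogen, was at 17.8, 12.6 and 26.1 CPM in KO embryos, with a log2 difference of 0.84 ± 0.19 (edgeR adjusted p = 0.227). Of the 15 plasma protein genes tested 14 had a positive difference, with a median of 0.38 beside 0.01 over all genes, and none passed. All 11 lipoprotein genes had a positive difference, with a median of 0.24, among them *Apoa4* at 0.53 ± 0.15 (adjusted p = 0.242). Of 21 glycolysis and hypoxia genes 18 were positive, with a median of 0.21, *Aldoa* at 0.55 ± 0.19 and *Ldha* at 0.33 ± 0.15 among them (adjusted p = 0.311 and 0.457). In VE edgeR called none of the genes of these 3 lists, and DESeq2 called *Plg* (adjusted p = 0.0265) and *Bnip3*. The other cells of the same embryos also leaned positive. There the medians were 0.43 for plasma proteins (9 of 13 positive), 0.72 for lipoprotein genes (10 of 11) and 0.26 for glycolysis and hypoxia genes (19 of 22). Positive signs were thus also found outside the members. RNA of the rule genes was still present in the other cells. It summed to 44.0, 65.3 and 367 CPM in the KO embryos, in order of age, and to 17.2 to 186 CPM in controls. Whether VE RNA among the other cells gave the signs of the plasma protein and lipoprotein genes there was not tested.

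*Hnf4a*, *Cubn* and *Apob*, with which the label was checked, had small differences that did not pass. *Hnf4a* was at 103, 97.7 and 62.0 CPM in KO embryos, beside 94.6 to 126, 78.4 to 95.6 and 66.8 to 82.0 CPM in controls (log2 difference 0.08 ± 0.11, adjusted p = 0.894). *Cubn* and *Apob* had differences of 0.15 ± 0.14 and 0.20 ± 0.18, and of 20 VE transcription factors 15 were positive, with a median of 0.16 and no call. In the other cells 16 of 20 were positive, with a median of 0.83 and 4 called higher, beside 0.396% of all genes tested there. *Fgf5*, *Nodal* and *Eomes*, which fell with age in controls, had differences of 0.46 ± 1.02, -0.34 ± 0.84 and 0.30 ± 0.45. In the late KO embryo *Fgf5* was at 3.20 CPM and *Eomes* at 13.95 CPM, above the highest late control at 0.652 and 9.46 CPM. Cluster 3, in which both were higher, made up 23.7% of its clustered members, against 6.70% to 22.01% in the late controls. These intervals are wide for low genes and do not show that the genotypes are alike.

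*Cdx1* and *Mesp1* were at 0 in the members of all 3 KO embryos. *Cdx1* was at 9.59 to 47.9 CPM in the late controls (edgeR adjusted p = 0.227, DESeq2 adjusted p = 0.0308). *Mesp1* was at 0 to 12.7 CPM in control members, at a mean of 196 CPM in the other cells of early controls, and was among the genes at least 2-fold up in cluster 4. Over all cells of a cluster, *Cdx1* was at 84.5 CPM in cluster 4, 1.18 CPM in cluster 1 and 5.24 CPM in cluster 3. Primitive streak and mesoderm markers had a median difference of -0.91 among the members (13 genes tested) and of 0.32 among clean members (9 tested, 6 positive and 3 negative), with none called in either.

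The KO difference was set against that in the other cells of the same embryos. It differed for 31 of 15342 genes (0.202%), 7 higher (0.0456%) and 24 lower (0.156%) in VE, with 1091 (7.11%) at an unadjusted p under 0.05 and 76 by DESeq2. With clean members 52 of 14820 genes passed (0.351%). For 23 of the 24 both differences could be set side by side, with a median of 0.10 in VE and 1.63 in other cells. They include several genes known from VE and endoderm, chosen here after their values were seen. *Hnf4a* had 0.08 ± 0.11 in VE and 1.92 ± 0.32 in other cells (adjusted p of the comparison 0.0174), *Foxa2* 0.10 ± 0.17 and 1.59 ± 0.23 (adjusted p = 0.00123), *Amot*, a regulator of Hippo signalling, 0.04 ± 0.20 and 1.49 ± 0.18 (adjusted p = 0.00123), and *Spink3* 0.52 ± 0.41 and 2.40 ± 0.39 (adjusted p = 0.0353).

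In the other cells 15 of the 24 were called higher in KO, beside 0.396% of all genes tested there, from which nothing is read since the 24 were chosen on the same contrast. The rule genes summed to 44.0, 65.3 and 367 CPM in the other cells of the KO embryos and to 17.2 to 186 CPM in those of controls, and 1.96%, 2.19% and 2.35% of the other cells of KO embryos held 3 or 4 rule genes, against 0.439% to 6.09% in controls. In this comparison 0 genes passed without the E7.0 KO embryo, 5 without the late one, 4 of them among the 31, and 13 without the early one, 10 of them among the 31. *Lhx1*, *Dpp4*, *Gjb2*, *Clic6* and *Slc16a1* were among the 24, with VE differences of 0.75, 0.15, -0.09, 0.00 and -0.14. The cyclin gene *Ccne1* was among the 7, with -0.77 ± 0.25 in VE and -1.67 ± 0.38 in other cells.

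**Figure D5:**
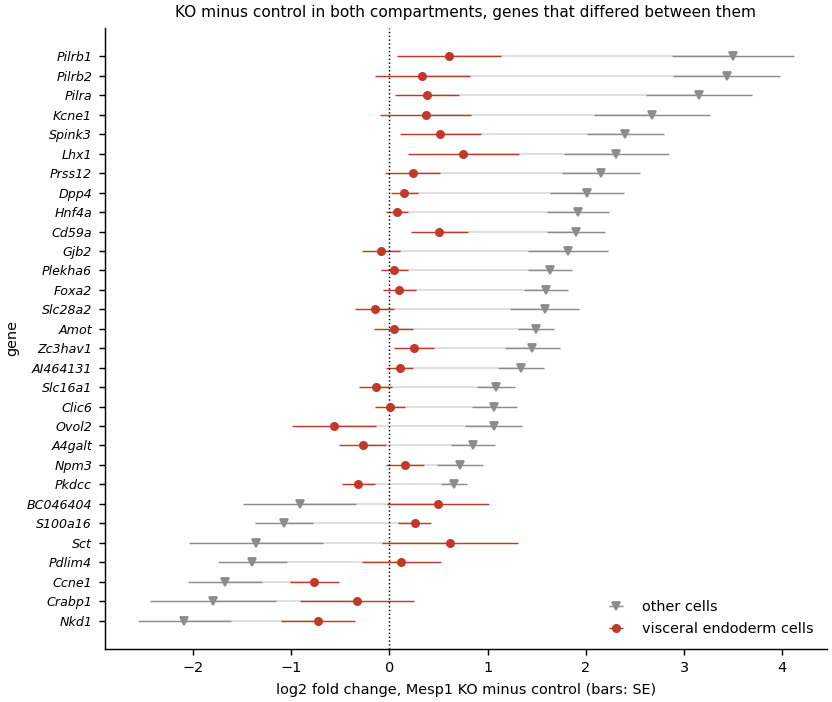
Log2 fold change, KO minus control, in VE cells (red circles) and in other cells (grey triangles) with SE, for the 30 of 31 genes whose KO difference differed between both compartments and that have a value in both. *Hnf4a*, *Foxa2* and *Amot* lie at 0.04 to 0.10 in VE and at 1.49 to 1.92 in the other cells, whose values reach 3.50.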

How the data were processed

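Single-cell RNA-seq of 15 embryos was used. The authors aligned 10x 5′ reads to mm10 with eGFP and Ai14 added and deposited UMI counts per gene and barcode (Cell Ranger 3.0.2), without depth normalization. Retained barcodes had 200 to 7000 genes, under 50000 UMIs and under 10% mitochondrial UMIs. The members, gene lists and tests were chosen with earlier results of these data known. Libraries named by experiment number formed 5 experiments. Counts were summed per embryo with at least 10 members, passed through filterByExpr and TMM scaling, and entered the quasi-likelihood test of edgeR 4.0.16 (R 4.3.3) with Benjamini-Hochberg adjustment. DESeq2 1.42.0 was an alternative. Late was compared with early with 1 mean for each stage, KO with control with stage as a covariate, and VE with other cells with the embryo as a block. Shares were tested by exact permutation of embryos (scipy 1.17.1). Intervals (95%) and floors (3 counts) cover counting error only. Members were sub-clustered by the Leiden method (scanpy 1.11.5, 1000 variable genes, 20 components, resolution 0.3). Doublets were scored within libraries against simulated pairs, kept, and left out in an alternative, at 0.8% per 1000 barcodes. Named genes were, per direction, the 10 largest changes among called genes of at least 20 CPM whose early and late embryos did not overlap (gene models, mitochondrial and ribosomal genes passed over), and listed genes and the rule genes as levels. The edgeR test was tested on simulated counts. Alternatives were other filters, cell limits, thinning, covariates, the replicate block and each embryo left out. A listed gene is not reported here.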

Additional observations from a re-analysis of the deposited data

Results flagged for a closer look

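Of 60 groups of embryos tested for a value far from the others, 6 were picked out, where chance picks about 1 in 20. Among the late controls, E7.75 control replicate 1 stood apart with 3442 CPM of *Apom* and 102 CPM of *Sct*. Among the early controls, the E6.5 control, the oldest of them, stood apart with 0.334 CPM of *Cdx1* and 3.67 CPM of *Sct*, and E6.0 control replicate 1 with 50.4 CPM of *Wnt3* and 80.1 CPM of *Eomes*. The *Cdx1* value rests on 3 UMIs.

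The change from early to late differed between VE and the other cells of the same control embryos for 1451 genes (edgeR's quasi-likelihood test of the difference). Among the named genes it was more positive in VE by 2.64 for *Cdx1*, 1.93 for *Sct*, 2.15 for *Nnat*, 2.10 for *Pdlim4*, 3.47 for *Eomes*, 1.80 for *Utf1* and 1.26 for *Vrtn*, and more negative for *Dgkk* at -1.69, all on the log2 scale with adjusted p of at most 0.0291. *Eomes*, *Utf1* and *Vrtn* fell in both, and less in VE.

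The KO difference was unlike that of the other cells for 31 genes by the same test.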

How the results depend on the processing

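No direction was reversed for a named gene. These genes were chosen for early and late controls that do not overlap, so this gives no separate check. Of the values of the 20 named genes 186 stayed past the threshold and 82 did not under other settings, and 140 and 98 with an embryo left out. For genes late against early, 781 passed with DESeq2, 597 with no filter on low counts, 1 with experiment as a covariate, 589 with *Cer1* not considered, 33 with thinned cells, 1159 with the order of ages as a linear term and 0 within experiment 7 alone, where 433 had an unadjusted p under 0.05. Subsets of members and the use of all barcodes were chosen after seeing the data. Members with at least 0.5% mitochondrial UMIs gave 419, clean members 270 and cluster 1 alone 170 genes. Leaving out an embryo gave 4 to 575, with 4 without E6.0 control replicate 3, 13 without late E6.0, 23 without E7.75 replicate 2, 29 without late E7.5 replicate 2, 47 and 60 without E6.0 replicates 1 and 2, 98 without E7.75 replicate 1, 169 without E7.0, 396 without early E7.5 and 575 without E6.5. The causes were not tested. Embryos of the same replicate number, which is not the experiment number, share only a name (median correlation of 8 early and late pairs 0.0579, range -0.465 to 0.415). With replicate number as a block 0 genes passed in edgeR, 1833 at an unadjusted p under 0.05.

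For the share, late minus early, the threshold was passed at -7.27 points with thinned cells, -12.18 with *Cer1* not considered, -8.68 without likely doublets and -9.05 in clean members (exact permutation p from 0.0159 to 0.0317), and the other settings and each embryo left out gave -2.92 to -9.18 and did not pass. KO minus control ranged from -5.97 to -0.00226 points over embryos left out.

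For KO against control, 114 genes passed with DESeq2, 1 with experiment as a covariate and 3 with thinned cells, and 0 to 3 when an embryo was left out. By stage, DESeq2 gave 2, 5 and 5, the covariate and thinning 1 each at the middle stage, and embryos left out 0 to 1 early, 0 middle and 0 to 201 late. The late minus early KO difference gave 0 to 2, with 2 without E7.75 control replicate 1. Against the other cells, the age change gave 426 to 2312 genes over embryos left out, and the KO difference gave 76 with DESeq2, 117 with no filter, 52 in clean members and 0 to 54 over embryos left out.

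Depth limits low genes in E7.75 control replicate 1 and the late KO embryo, which are shallow. Experiment overlaps stage and genotype.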
